A study of Bos taurus with 12 samples.

Results

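The genes described here are the collagens and other stromal matrix genes of the bovine mammary gland (MG), together with a few genes that mark the stromal cells which make them. The list held 40 genes, picked by symbol, and a probe was assigned to a gene when the RefSeq transcript printed for it in the scanner files belonged to that symbol. In all, 32 of the 40 genes had such a probe, out of 12787 genes with a probe on the array. The genes without one were COL5A1, COL5A2, COL6A3, COL14A1, COL16A1, COL4A2, LAMA2 and HSPG2. Total RNA came from MG biopsies of 6 multiparous, midlactation Holstein cows, each sampled in both periods. In the control period (CONT, day 0) the cows ate a total mixed ration without restriction. In the restriction period (REST, day 6 of restriction) they were given a ration worth 50% of their calculated energy needs (NEL). Every CONT biopsy came before the REST biopsy of the same cow, the methods place the biopsies on alternating rear glands of the udder, and every cow was restricted, so that feed restriction, elapsed time and an earlier biopsy cannot be told apart. No genotype beyond the breed was given.

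Fibrillar collagens form the cables of the connective tissue around the ducts and alveoli, and smaller collagens and proteoglycans sit on these cables and set their spacing. Beneath the epithelium and around vessels lies the basement membrane, a sheet of type IV collagen and laminin joined by nidogen, on which milk-secreting cells rest and to which they attach through integrins. Most interstitial matrix is made by fibroblasts, whereas epithelial, myoepithelial and endothelial cells contribute to the basement membrane, and the gland is known to remodel both as it passes between lactation and involution.

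Values are normalized signals, the log2 of the processed spot intensity minus the 75th percentile of that array, so that 0 is the level of the 75th percentile and a difference of 1 is a doubling. Each cow had both of its arrays on the same slide, slide 1 carrying cows 1 and 2, slide 2 carrying cows 3 and 4 and slide 3 carrying cows 5 and 6. The arrays of slide 3 were dimmer, with a 75th percentile of 73.2 to 117 intensity units against 252 to 390.0 on the other slides, and 41.9 to 48.0% of their spots were well above background against 61.8 to 67.9%. No array had a saturated spot (0 on each). Testing was limited to probes that Feature Extraction called well above background on all arrays of CONT, of REST or of both, and each gene was followed by its brightest tested probe. That left 30 matrix genes. FBN1, a fibrillin, was well above background on 3 CONT and 2 REST arrays and LOX, the lysyl oxidase that cross-links collagen, on 4 and 5, so neither was tested. Of the 30, 29 passed in both periods and POSTN passed in REST alone.

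Feed restriction was followed by changes in few of these genes. COL4A1, the main chain of basement membrane collagen, and SPARC, a collagen-binding glycoprotein, fell, while LAMB2, the laminin beta 2 chain, and FMOD, the proteoglycan fibromodulin, rose (limma with the cow as a block, Benjamini-Hochberg adjustment over all tested probes, threshold 0.1). Fewer cells of a type and less RNA per cell cannot be told apart in whole biopsies, here or in any later result. Of the 30 genes, 2 were therefore lower in REST, where 9.27% of the 7932 tested genes were, and 2 were higher, where 6.95% were. The called share, 13.3% of the matrix genes against 16.2% of all tested genes, was close to the background. An unadjusted p below 0.05 was reached by 10 of the 30 and by 27.7% of all tested genes. When a gene counted as soon as any of its probes passed, 5 genes were lower (COL4A1, SPARC, COL1A1, BGN and NID2; 11.5% of all genes) and 2 were higher (LAMB2 and FMOD; 9.08% of all genes), a count that grows with the number of probes a gene has. Without the block, COL4A1 and SPARC stayed lower (2.81% of all genes were) and LAMB2 was higher (1.6% of all genes were), but FMOD did not pass.

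The median change over the 30 genes was -0.17 on the log2 scale, beside -0.01 over all tested genes. It was -0.48 over the 3 fibrillar collagens, -0.23 over the 9 basement membrane genes, -0.18 over the 3 elastic fibre genes, -0.09 over the 3 other interstitial collagens, 0.04 over the 8 proteoglycans and matrix glycoproteins and 0.24 over the 4 stromal cell genes. In sign, 19 of the 30 changes were negative and 11 positive, and 51.6% of all tested genes were negative. Most intervals were wide. The median half-width of the 95% confidence intervals, which are not adjusted for the number of probes, was 0.33. Changes smaller than that could mostly not be resolved with 6 cows. Some larger changes, such as that of COL1A1 (-0.54), were not called either.

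**Figure D1:**
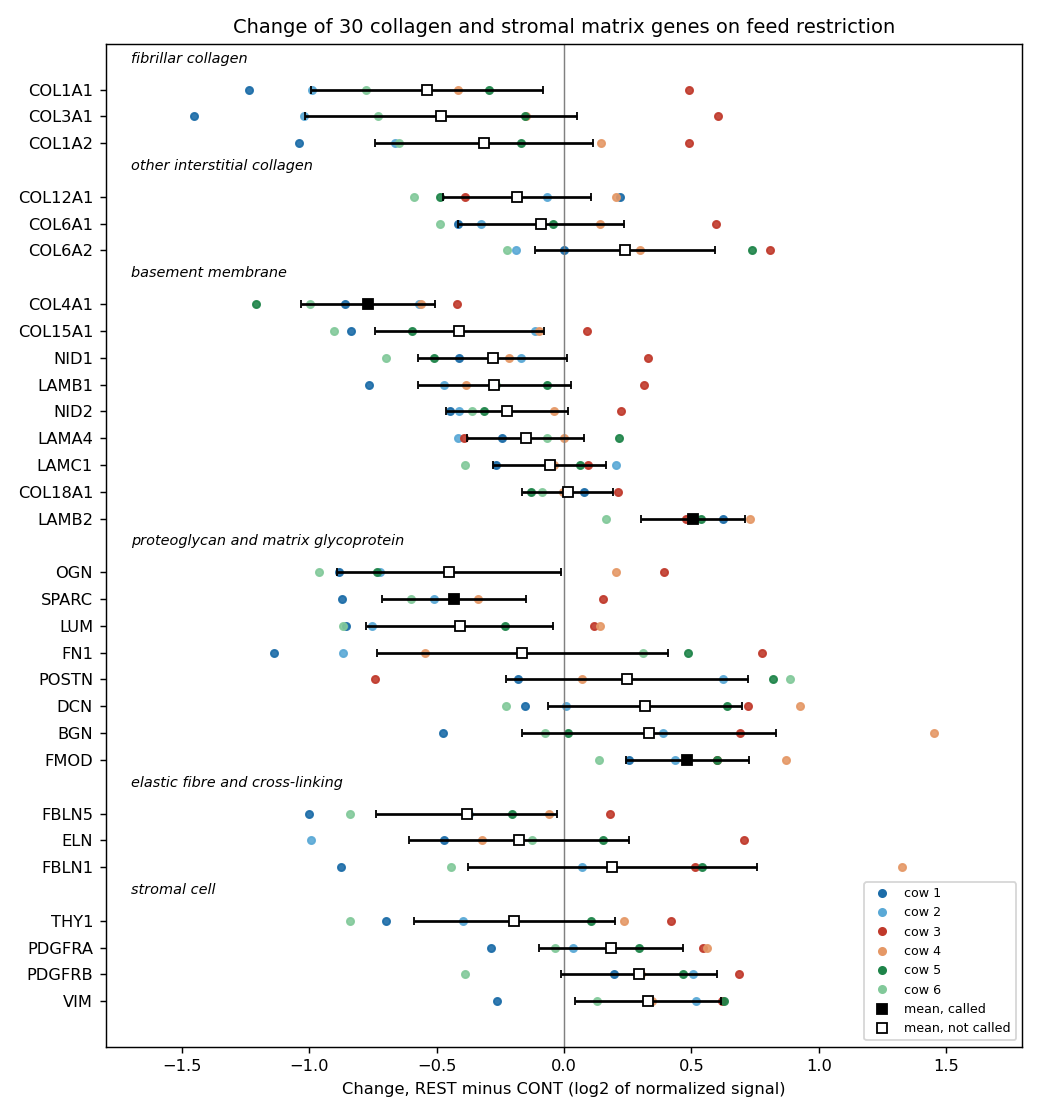
Change of each of the 30 tested matrix genes between periods (x axis, REST minus CONT, log2 of normalized signal), grouped by role. Squares are means with 95% confidence intervals from limma (filled where called at an adjusted p below 0.1), and coloured points are the 6 cows. The called changes are those of COL4A1 and SPARC (negative) and of LAMB2 and FMOD (positive), and the points of cow 3 lie to the right of the others in 18 genes.

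The fibrillar collagens had negative mean changes, and none of the 3 tested passed, where 16.2% of all tested genes did. None called among so few genes is close to that share. Of the 3, 1, COL1A1, had an unadjusted p below 0.05, beside 27.7% of all tested genes. COL3A1 (NM_001076831), the type III collagen of soft connective tissue, ranged from 3.63 to 4.53 in CONT (median 3.87) and from 2.85 to 4.58 in REST (median 3.49). Its change was -0.48 ± 0.24 (SE, n = 6 cows; adjusted p = 0.219), and the periods overlapped because the highest value of all was the REST value of cow 3. Cow by cow the change ran from -1.45 in cow 1 and -1.02 in cow 2 to 0.61 in cow 3, which was the exception among the 6. All 10 probes of COL3A1 had a negative change, from -0.59 to -0.27.

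COL1A2 (NM_174520), the second chain of type I collagen, lay between 2.01 and 3.29 in CONT (median 2.45) and between 1.58 and 3.09 in REST (median 2.04). Its change was -0.31 ± 0.19 (adjusted p = 0.313), negative in cows 1, 2, 5 and 6 and positive in cows 3 and 4. COL1A1, the other chain, gave -0.54 ± 0.20 (adjusted p = 0.125), negative in 5 of 6 cows, and of its 3 tested probes the dimmest alone was called, with -0.39 (adjusted p = 0.078). Without cow 3, COL1A1 (-0.74, adjusted p = 0.0389) and COL3A1 (-0.70, adjusted p = 0.0818) were both called lower, whereas without cow 1 the changes were -0.40 for COL1A1 (adjusted p = 0.279), -0.17 for COL1A2 (0.612) and -0.29 for COL3A1 (0.463).

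Among the other interstitial collagens, none of the 3 tested was called and none had an unadjusted p below 0.05 (0 of 3). The shares of all tested genes were 16.2% and 27.7%, and a count of none among so few genes is close to them. COL6A1 (NM_001143865), a chain of the beaded filaments that type VI collagen forms around cells, had signals of 4.61 to 5.35 in CONT (median 5.12) and 4.67 to 5.75 in REST (median 4.81). The REST value of cow 3, 5.75, stood well above those of the other cows, 4.67 to 4.94. The change was -0.09 (95% interval -0.42 to 0.24; adjusted p = 0.720). For COL6A2, its partner chain, the change was 0.24 (adjusted p = 0.352), and there too cow 3 had the highest REST value by a wide margin, -0.28 against -1.53 to -1.10. COL12A1 (NM_001206497), which bridges collagen fibrils, lay between -0.69 and 0.47 in CONT (median 0.17) and between -0.57 and 0.30 in REST (median -0.05). Its change was -0.19 (95% interval -0.48 to 0.11; adjusted p = 0.380), and here the positive changes belonged to cows 1 and 4. Without slide 3 the change was -0.008, and without cow 6 it was -0.10.

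In the basement membrane, 1 of 9 tested genes fell and 1 rose, beside 9.27% and 6.95% of all tested genes. COL4A1 (NM_001166511), whose chains form the network that holds the sheet together, had CONT values of 3.58 to 4.62 (median 4.26) and REST values of 3.01 to 3.80 (median 3.44). Every cow was lower in REST, by 0.42 (cow 3) to 1.21 (cow 5), and the periods overlapped only because cow 2 was low in both. The fall was 0.77 ± 0.12 on the log2 scale, or 1.71-fold (95% interval -1.03 to -0.51; adjusted p = 0.0104). It was the only matrix gene lower in all 6 cows, where 10.8% of all tested genes were. Its mean change was -0.72, -0.49 and -1.11 on slides 1, 2 and 3, and its 4 probes were all called lower (-0.84 to -0.61). It was called in each of the 22 settings tried, the one reported included (adjusted p 0.00372 to 0.0792). Some of these could hardly differ from the reported fit. The deposited value table held the same values, and keeping marked spots restored only 1 to 13 spots per array.

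LAMB2 (NM_001046247), the beta chain of the laminins found in vessel walls, muscle and nerve, moved the other way. It lay between 1.35 and 1.94 in CONT (median 1.65) and between 2.08 and 2.22 in REST (median 2.17), so that the periods did not overlap. The rise was 0.51 ± 0.09, or 1.42-fold (95% interval 0.30 to 0.71; adjusted p = 0.0189), and both tested probes were called higher (0.51 and 0.57). It was smallest in cow 6 (0.16), which had the highest CONT value, and largest in cow 4 (0.73), which had the lowest. LAMB2 and FMOD were the 2 matrix genes higher in all cows, where 7.5% of all tested genes were. On slides 1, 2 and 3 the rise of LAMB2 was 0.56, 0.60 and 0.35, and its call was lost when dim probes were not filtered out (adjusted p = 0.106).

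The other 7 basement membrane genes were not called. COL15A1, a collagen that links the basement membrane to the stroma, had a change of -0.41 ± 0.15 (adjusted p = 0.115), and LAMB1, the beta 1 laminin chain, of -0.27 ± 0.13 (adjusted p = 0.216). NID1 and NID2, the nidogens that tie laminin to type IV collagen, gave -0.28 (adjusted p = 0.199) and -0.23 (adjusted p = 0.204), each negative in every cow but cow 3. Without cow 3, COL15A1 (adjusted p = 0.0869), LAMB1 (0.0913), NID1 (0.0727) and NID2 (0.0978) were called lower as well. Smaller changes were seen for COL15A1 (-0.24, adjusted p = 0.348) and NID1 (-0.12, 0.597) without slide 3 and for LAMB1 without cow 1 (-0.18, 0.452). The dimmer probe of NID2 was called lower (-0.40, adjusted p = 0.028), whereas that of NID1 had a positive change (0.14). LAMA4, the laminin alpha chain of vessels, gave -0.15, LAMC1, the gamma 1 chain shared by most laminins, -0.06, and COL18A1, the source of endostatin, 0.01 (95% interval -0.16 to 0.19).

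**Figure D2:**
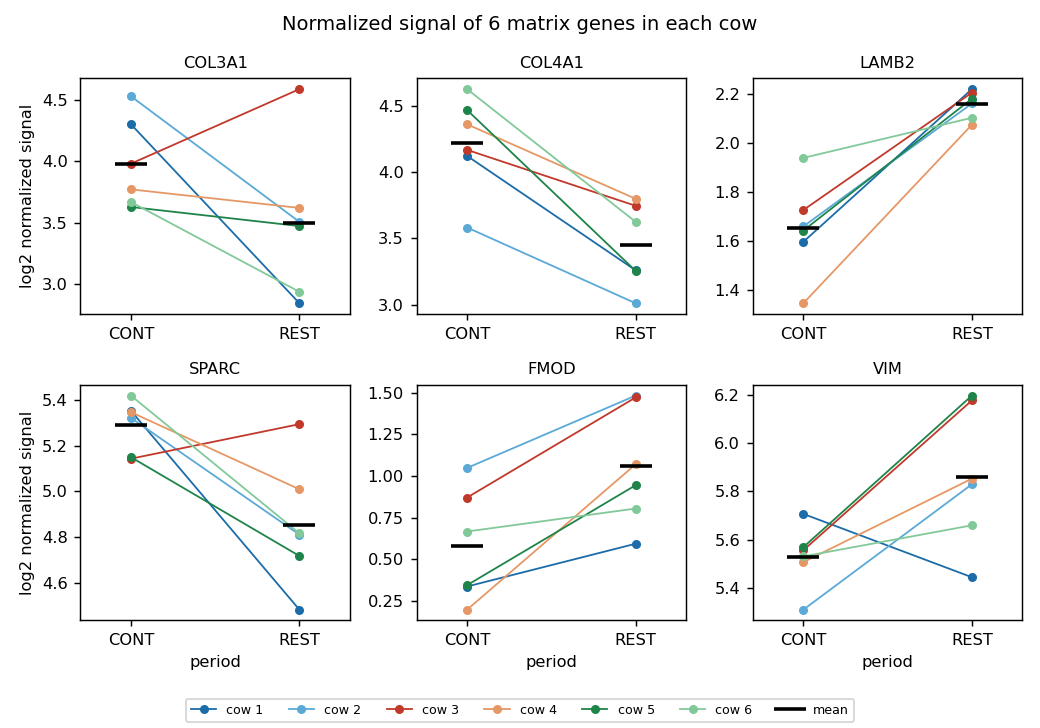
Normalized signal (y axis, log2 relative to the 75th percentile of the array) of 6 matrix genes in CONT and REST. Each line joins the values of 1 cow and black bars are the means of 6 cows; each panel has its own axis and levels are not comparable between panels. COL4A1 declines in all 6 cows, LAMB2 and FMOD increase in all 6, and cow 3 goes against the other cows in COL3A1 and SPARC.

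The proteoglycans and matrix glycoproteins divided, with 1 of 8 tested genes falling, 1 rising and 6 not called, beside 9.27% lower and 6.95% higher among all tested genes. SPARC (NM_174464), also called osteonectin, binds collagen outside the cell and takes part in its assembly. It lay between 5.14 and 5.42 in CONT (median 5.33) and between 4.48 and 5.29 in REST (median 4.81). CONT values were tightly grouped, REST values were spread, and the REST value of cow 3 was the one inside the CONT range. The fall was 0.43 ± 0.12, or 1.35-fold (95% interval -0.72 to -0.15; adjusted p = 0.0667), with 5 of 6 cows lower, 4 of 6 probes called lower and all 6 probes negative. The call was lost when cow 1, 2, 4 or 6 was left out (adjusted p 0.126 to 0.169) as well as under quantile normalization (0.101), without slide 3 (0.164), in a paired test without moderation (0.151) and with no filter on dim probes (0.182), and it strengthened without cow 3 (-0.55, adjusted p = 0.0333).

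FMOD (NM_174058), a small leucine-rich proteoglycan that binds collagen fibrils, ranged from 0.20 to 1.05 in CONT (median 0.51) and from 0.59 to 1.48 in REST (median 1.01). The periods overlapped widely, because cows that were high in CONT were also high in REST, yet each cow was higher in REST. The rise was 0.48 ± 0.11, or 1.40-fold (95% interval 0.24 to 0.72; adjusted p = 0.0337), from 0.14 in cow 6 to 0.87 in cow 4. It rested on a single probe and on the pairing, since the adjusted p was 0.204 without the cow as a block and 0.163 with the slide as a block, and it was 0.138 with no filter on dim probes.

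LUM and OGN, lumican and osteoglycin of the same proteoglycan family, had negative changes of -0.41 (adjusted p = 0.144) and -0.45 (adjusted p = 0.171), in both cases positive in cows 3 and 4 and negative in the others. OGN was called lower without cow 3 (-0.62, adjusted p = 0.0776), and its change was -0.25 without slide 3 (adjusted p = 0.482). DCN, decorin, gave 0.32 (adjusted p = 0.254), with 7 of its 9 probes positive and 2 negative. Its change was 0.21 as the mean over its probes and 0.41 without cow 1. The probes of BGN, biglycan, disagreed. The brighter gave 0.33 (adjusted p = 0.356), with 1.45 in cow 4 and -0.47 in cow 1, while the dimmer was called lower (-0.36, adjusted p = 0.084), so no direction can be given for BGN. FN1, fibronectin, had a change of -1.14 in cow 1 and of 0.78 in cow 3, around a mean of -0.16 (adjusted p = 0.707) that was 0.031 without cow 1. POSTN, periostin, gave 0.25 (adjusted p = 0.476) and here cow 3 had the lowest change, -0.74, while without slide 3 the value was -0.057 and without cow 6 it was 0.12.

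Of the elastic fibre genes, none of 3 tested was called, and 1, FBLN5, had an unadjusted p below 0.05. Both counts are close to the shares of all tested genes, 16.2% and 27.7%. FBLN5 (NM_001014946), which organizes elastin on its scaffold, lay between 0.80 and 1.60 in CONT (median 1.14) and between 0.25 and 1.21 in REST (median 0.75). Its change was -0.38 ± 0.16 (adjusted p = 0.153), negative in every cow but cow 3. FBLN1 (NM_001098029), a fibulin of vessel walls and basement membranes, varied more between cows than between periods, from -1.14 to 1.08 in CONT (median 0.30) and from -0.64 to 1.38 in REST (median 0.48). The change of 0.19 ± 0.25 (adjusted p = 0.659) had its sign from cow 4 (1.33), as it was -0.038 without that cow. ELN, elastin itself, gave -0.18 (adjusted p = 0.582), and its change was -0.012 without cow 2 and -0.27 without slide 3.

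The stromal cell genes were not called either (0 of 4, with VIM alone at an unadjusted p below 0.05). Both counts are close to the shares of all tested genes, 16.2% and 27.7%. VIM (NM_173969), the intermediate filament of mesenchymal cells, lay between 5.31 and 5.71 in CONT (median 5.54) and between 5.44 and 6.20 in REST (median 5.84). Its change was 0.33 ± 0.13 (adjusted p = 0.134), positive in 5 of 6 cows and for all 5 probes, and it was called when cow 1, the exception, was left out (0.45, adjusted p = 0.0695). THY1 (NM_001034765), a surface glycoprotein of fibroblasts, ranged from 1.56 to 2.37 in CONT (median 2.22) and from 1.43 to 2.79 in REST (median 1.75). The change was -0.20 ± 0.17 (adjusted p = 0.499), negative in cows 1, 2 and 6 and positive in cows 3, 4 and 5. It was -0.067 without cow 6, -0.095 without cow 1 and -0.32 without cow 3. The receptors for platelet-derived growth factor, PDGFRA of fibroblasts and PDGFRB of pericytes and fibroblasts, gave 0.18 (adjusted p = 0.368) and 0.29 (adjusted p = 0.195). PDGFRB was called higher without cow 6 (0.43, adjusted p = 0.047) and without slide 3 (0.42, adjusted p = 0.066).

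The change of these genes varied between cows. Each cow gave a single biopsy per period, so its response and the make-up of its biopsies cannot be told apart. The SD of the change over the 6 cows had a median of 0.42 over the matrix genes against 0.25 over all tested genes, and it was above the latter in 26 of the 30. Of the 30 changes, 25 were negative in cow 1 and in cow 6, 19 in cow 2, 15 in cow 5, 14 in cow 4 and 4 in cow 3, whereas 48.7 to 56.8% of all tested genes were negative in any cow. The median change of the matrix genes was -0.46, -0.26, 0.45, 0.10, -0.01 and -0.39 in cows 1 to 6. Both extremes showed in the levels. Cow 3 had the highest REST value in 18 of the 30 genes, cow 1 the lowest REST value in 17 and cow 6 the highest CONT value in 15. These genes are not independent of each other, and the counts describe the 6 cows without a test.

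The count of lower genes turned on cow 3. Without it, 9 of the 30 matrix genes were called lower, where 6.62% of all tested genes were. Those added to COL4A1 and SPARC were COL1A1, COL3A1, COL15A1, LAMB1, NID1, NID2 and OGN, and the median change was then -0.27. Cow 3 had the highest change in 18 of the 30 genes, against 16.0% of all tested genes. Leaving it out therefore had to lower most means of the matrix genes, which was not so for all tested genes. The 9 calls, and those of single genes without cow 3 above, are thus no test of a decrease. Leaving out cow 1, 2, 4 or 6 left COL4A1 as the 1 gene called lower, and leaving out cow 5 left 2. Calls over all tested probes moved as well, from 3105 to 1531, 1044, 1192 and 2764 without cows 1, 2, 4 and 6. They were 2332 without cow 3 and 3292 without cow 5. Within slides, the median change was -0.39 on slide 1, 0.16 on slide 2, which held cows 3 and 4, and -0.17 on slide 3. Each slide held both periods of its cows, and on slide 2 the cows differed, with 4 of 30 genes negative in cow 3 (median 0.45) and 14 in cow 4 (median 0.10). The labels and arrays gave 6 cows although the series description counts 5 and the methods mention a Holstein cow left out for mastitis, and which cow that was is not given in the sources used here.

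**Figure D3:**
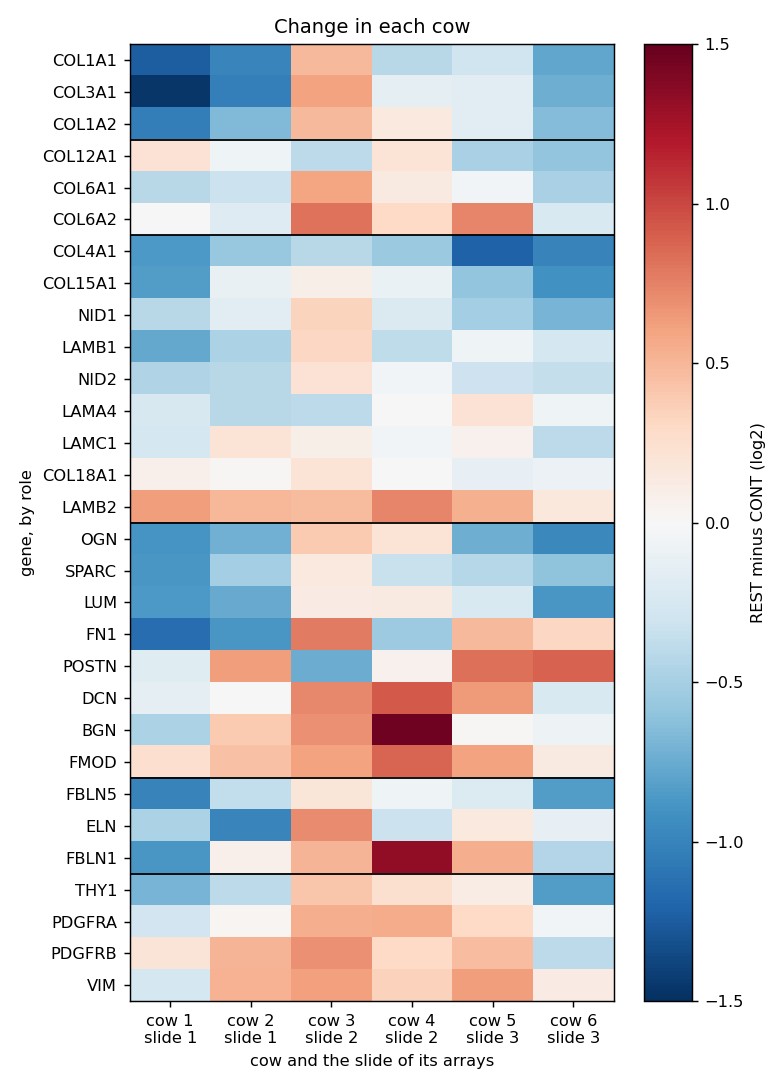
Change of the 30 matrix genes (rows, by role, separated by lines) in each cow (columns, with the slide of its arrays), as REST minus CONT on the log2 scale (blue negative, red positive). Cow 1 and cow 6 are negative in 25 of 30 genes and cow 3 is positive in 26, while COL4A1 is negative and LAMB2 and FMOD are positive throughout.

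Collagen needs a chain of enzymes and chaperones on its way out of the cell. Of 23 such genes, 17 were tested, and 4 fell and 2 rose, with a median change of -0.20. The called share was 35.3%, against 16.2% of all tested genes. SERPINH1 (HSP47), the collagen chaperone of the endoplasmic reticulum, fell from 1.20 ± 0.16 to 0.53 ± 0.25 (mean ± SD, n = 6), a change of -0.67 ± 0.11 (SE) with an adjusted p of 0.0141, and was lower in 6 of 6 cows, cow 3 included. LOXL2, a cross-linking enzyme active on type IV collagen (-0.55, adjusted p = 0.0224), P4HA1, a prolyl hydroxylase subunit (-0.32, adjusted p = 0.0903), and PCOLCE, the enhancer of procollagen cleavage (-0.43, adjusted p = 0.0872), fell too. By contrast CRTAP, part of the prolyl 3-hydroxylation complex, rose by 0.69 ± 0.10 (adjusted p = 0.00936) and LOXL4, another lysyl oxidase, by 0.86 ± 0.19 (adjusted p = 0.0335), each in 6 of 6 cows. Without the block, P4HA1 (0.243), PCOLCE (0.223) and CRTAP (0.124) did not pass, which left 2 lower and 1 higher.

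The called shares of the next lists were 10.0% (further matrix), 16.7% (matrix receptors) and 9.09% (TGF-beta pathway), against 16.2% of all tested genes. The further matrix genes, 20 tested of 38, held 1 gene that fell and 1 that rose, with a median change of 0.10. LAMB3, a chain of the laminin that anchors epithelium, rose by 0.55 ± 0.10 (adjusted p = 0.0194; 6 of 6 cows), and ECM1, a secreted matrix glycoprotein, fell by 0.53 ± 0.13 (adjusted p = 0.0484; 5 of 6 cows). Of the matrix receptors, 12 tested of 19 with a median change of 0.12, ITGB4, the integrin chain that binds that laminin, rose by 0.53 ± 0.13 (adjusted p = 0.0454; 6 of 6 cows), and SDC2, a heparan sulfate proteoglycan of the cell surface, fell by 0.46 ± 0.10 (adjusted p = 0.0343; 6 of 6 cows). In the TGF-beta pathway, a main inducer of collagen transcription, 11 genes of 17 were tested and the median change was 0.13. LTBP3, which stores latent TGF-beta in the matrix, rose by 0.29 ± 0.07 (adjusted p = 0.0498; 0.219 without the block), none fell (0 genes by limma), and 2 of the 11 had an unadjusted p below 0.05, beside 27.7% of all tested genes.

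Markers of other cells of the biopsy also moved, and their counts stand beside 9.27% of all tested genes lower and 6.95% higher. The tissue label was met by LALBA, the milk protein alpha-lactalbumin, at 9.69 to 10.37 in CONT and 9.53 to 10.06 in REST. Of 10 luminal epithelial markers, 8 were tested, 3 were higher in REST (KRT7, KRT8 and KRT18, keratins of this layer; none without the block, 0 of 8) and none was lower (0 of 8). LALBA and ELF5 had negative changes, and LALBA was lower in 6 of 6 cows, with -0.20 (adjusted p = 0.139), and 1 of its 2 probes was called lower. Their median change was 0.28, and by cow it was 0.65, 0.70, -0.14, 0.35, 0.05 and 0.09, with the lowest value in cow 3, where the matrix genes had their highest. Their summed signal, in multiples of the 75th percentile of the array, was 1119 to 1589.7 in CONT and 1068 to 1370.1 in REST, and most of it came from LALBA.

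The list of other fibroblast markers left out the matrix genes followed here, but shared DPT and MFAP5 with the further matrix list. Its median change was 0.11, with 2 of 7 tested higher, FAP and TWIST1 (without the block TWIST1 alone, and FAP had an adjusted p of 0.513). By cow it was -0.41, -0.32, 0.30, 0.44, 0.59 and -0.31, so that the cows with negative values, 1, 2 and 6, were those with the lowest medians of the matrix genes. The summed signal of these 7 markers was 7.63 to 15.4 in CONT and 7.02 to 22.1 in REST, and TCF21, a further marker, was well above background on no array (0 of 6 in each period). Endothelial markers had a median of 0.18, with 2 of 8 higher, VWF (0.54, adjusted p = 0.00726) and CLDN5 (0.74, adjusted p = 0.0115), and a summed signal of 30.1 to 44.6 in CONT and 41.5 to 58.4 in REST. The part of these markers in the changes of the matrix genes was not tested.

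**Figure D4:**
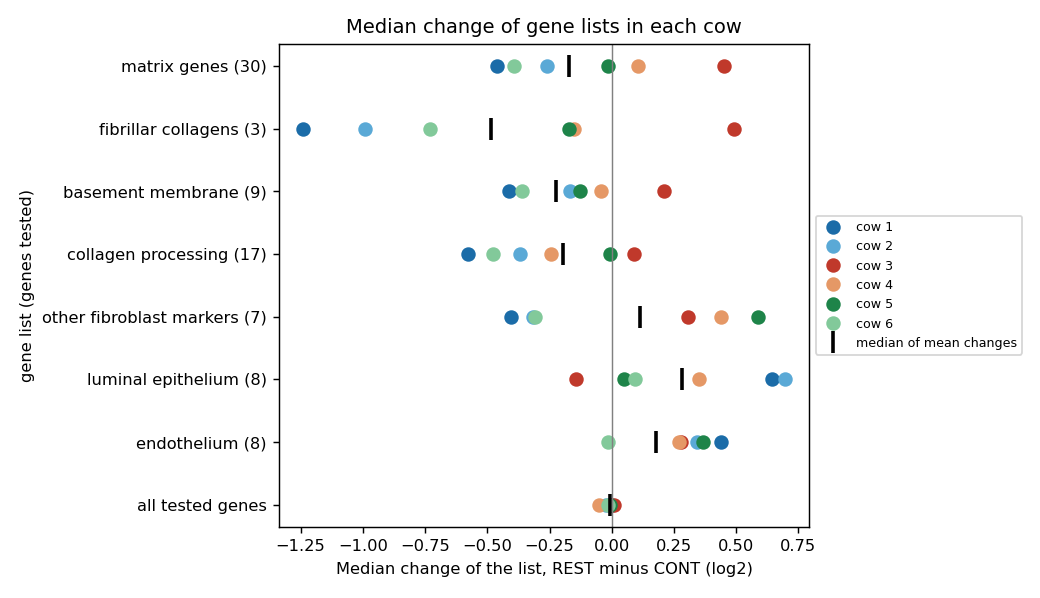
Median change (x axis, REST minus CONT, log2) of gene lists (y axis, with the number of genes tested) in each of the 6 cows (points), with the median of the mean changes (black bar). Medians of all tested genes lie near 0 in every cow, those of the fibrillar collagens run from -1.24 in cow 1 to 0.49 in cow 3, and cow 3 has the highest median of the matrix genes and the lowest of the luminal markers.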

How the data were processed

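RNA from 12 MG biopsies (6 CONT and 6 REST, the same 6 cows) was hybridised to single-colour Cy3 Agilent bovine arrays, 1 array per biopsy. Per the file headers, the authors extracted spot intensities with Agilent Feature Extraction 11.0.1.1. The deposited scanner files hold the background-subtracted processed signal, a linear intensity without scaling between arrays, and the deposited value table held the same values in all 45220 cells of each array. The log2 of the deposited intensity was taken here, repeat spots (50 probes) were averaged, spots marked as outliers (1 to 13 per array) were left out and the 75th percentile of each array was subtracted, as in the methods.

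RefSeq identifiers were matched to symbols through a RefSeq gene table. Of 43653 probes, 27131 (62.2%) had a symbol. The grid refers to another bovine assembly than that table, so positions are not reported, and sequences are not used here. For each gene the tested probe of highest mean signal was followed.

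limma 3.58.1 (R 4.3.3; lmFit and eBayes, two-sided) was fitted to all 19406 tested probes with the cow, named in the labels, as a block. Deviations of samples of the same cow from the group means correlated at 0.356 to 0.574, those of different cows at -0.33 to 0.13. Adjusted p-values (Benjamini-Hochberg) had a threshold of 0.1, as in the methods. The fit was tested on simulated data. Python 3.11.15, pandas 2.3.3 and matplotlib 3.10.9 were used for tables and plots.

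Members and lists were chosen with earlier results of these data known. Genes with full statistics were, per role, at most 3 called members by size of change and, where fewer than 2 were called, the brightest up to 2. From each pathway list at most 3 called genes by size of change were taken, and other genes were named after their values were seen. Alternatives covered pairing, normalization, background correction, filtering, moderation, the probe of a gene and each cow left out. The number of arrays limits precision, and array signals hold no counts.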

Additional observations from a re-analysis of the deposited data

Results flagged for a closer look

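In 3 of 60 groups of 6 arrays (30 matrix genes in 2 periods) the highest or lowest value stood apart from the rest by Dixon's criterion, where chance gives about 1 in 20, or 3. The REST signal of COL6A1 in cow 3 was 5.75 while the other cows lay between 4.67 and 4.94, a gap of 0.745 of the range. The REST signal of COL6A2 in cow 3 was -0.28, with the others between -1.53 and -1.10 (a gap of 0.654 of the range). The REST signal of PDGFRA in cow 1 was -1.28, with the others between -0.49 and -0.08 (a gap of 0.657 of the range).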

How the results depend on the processing

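The median change over the matrix genes stayed between -0.27 and -0.10 under every alternative, and COL4A1 was called lower in each. The 2 genes called lower became 1 under quantile normalization, without slide 3 and in a paired test without moderation (SPARC lost), and 4 with the mean over the probes of a gene (COL1A1 and NID2 added) and with normexp on the median signals followed by the 75th percentile shift (COL15A1 and NID2 added), an alternative chosen after seeing the data because the files hold no mean signals. The count of lower genes was 3 with trend and robust moderation and with normexp followed by quantile normalization (COL15A1 added). With each cow left out in turn, 1 to 9 genes were lower and 2 to 3 higher, while calls over all tested probes ran from 1044 to 3292. The 2 genes called higher became 1 without the cow as a replicate block and with the slide as a block (FMOD lost). With no filter on dim probes, 1 gene was lower and 0 were higher, with adjusted p of 0.106 for LAMB2, 0.138 for FMOD and 0.182 for SPARC; in the reported fit, 10 of 30 had an unadjusted p below 0.05, beside 27.7% of all tested genes. With each cow left out in turn the change of FBLN1 lay between -0.038 (without cow 4) and 0.40. The sign also turned, none of these values being called, for FN1 (without cow 1), POSTN (without slide 3), BGN, COL18A1 and LAMC1 (mean over the probes of a gene), COL18A1 without cow 3, and LAMC1 without cow 6 and under the first normexp alternative. VIM was called higher with the cow as a random effect, with trend and robust moderation, with both normexp alternatives and without cow 1, and PDGFRB without cow 6 and without slide 3. Over all tested probes, calls fell from 3105 to 837 without the replicate block and to 388 with no filter. The cause of these differences was not tested. Scaling moved the median of all genes by less than 0.1. The dimmer arrays of slide 3 and the 6 cows limit what can be resolved for dim genes.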

Other observations

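The counts of called markers of the remaining cell types stand beside 16.2% called among all tested genes. Of 8 myoepithelial markers tested, CNN1 (-0.53, adjusted p = 0.0323) and ACTA2 (-0.38, adjusted p = 0.0857), contractile proteins, fell and KRT17 (0.44, adjusted p = 0.079) rose, none of which passed without the block, and TP63 was well above background on no array (0). The median change was 0.07 and the summed signal was 121 to 224 multiples of the 75th percentile in CONT and 112 to 213 in REST. Of 5 pericyte and vascular smooth muscle markers, RGS5 (-0.36, adjusted p = 0.077) fell and CSPG4 (0.35, adjusted p = 0.071) rose, with a summed signal of 6.89 to 11.3 in CONT and 6.89 to 11.1 in REST. Of 8 leukocyte markers, CD3E (0.35, adjusted p = 0.078) rose, with a summed signal of 9.76 to 12.2 in CONT and 10.4 to 13.3 in REST. FABP4 (-0.35, adjusted p = 0.045) fell among 2 adipocyte markers tested of 8, with PLIN1 well above background on no array (0), and CKM (-0.36, adjusted p = 0.070) fell among 2 skeletal muscle markers tested of 6, with MYH1 well above background on no array (0). None of these passed without the block (adjusted p 0.194 to 0.474).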
